A study of Mus musculus with 8 samples.

Results

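The miR-143 and miR-145 cluster is a pair of neighbouring microRNA (miRNA) genes, Mir143 and Mir145a, and each hairpin yields a 5p and a 3p arm. The 4 arms described here, mmu-miR-143-3p, mmu-miR-143-5p, mmu-miR-145a-5p and mmu-miR-145a-3p, were taken by name and are 4 of 1624 mature miRNA rows in a small RNA count table of 5716 rows. The table held 8 libraries of mesenchymal stromal cells from C57BL/6J mice, 4 from the pancreas (pMSCs, libraries 5 to 8) and 4 from inguinal white adipose tissue (iwatMSCs, libraries 13 to 16). Per the study's methods, the cells came from male mice of 8 weeks and were sorted as CD45-, CD31- and SCA1+. They were then expanded for 4 days, without treatment. Each sample was a pool of 3 to 5 mice, and both tissues were taken from the same mice, but no source ties a library to an animal. Libraries of the 2 tissues may therefore share animals, and the p-values measure the spread between these libraries.

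Primary transcripts that carry miR-143 and miR-145 are produced together, and the pair is best known from smooth muscle, where serum response factor and myocardin drive it. It is also abundant in pericytes and fibroblasts. miR-145-5p restrains the transcription factors KLF4 and KLF5, and miR-143-3p restrains ELK1 and the kinase ERK5 and has been described as favouring fat cell formation. In each hairpin most of the product comes from the guide arm, which enters the silencing complex, here miR-143-3p and miR-145a-5p, and the other arm is called the passenger. In the RefSeq annotation of GRCm38.p6 both genes lie on chromosome 18 with no other gene starting between them, and the order there is Bvht, Carmn, Mir145a, Mir143 and Il17b. Bvht and Carmn are long noncoding RNAs known from the heart and from smooth muscle, and Il17b encodes a cytokine.

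The libraries held 20793619 to 25824261 small RNA reads, of which 7789990 to 10538022 fell on mature miRNAs. Levels are given as CPM, reads per 1000000 mature miRNA reads after scaling by the trimmed mean of M values (TMM). The study set aside 1 outlier library without naming it. The pMSCs means of the deposited TPM matched those the study tabulates for 58 of 58 miRNAs only when library 7 was left out, so tests are given on the other 7 libraries, with all 8 beside them. By read counts library 7 did not stand apart: its log2 CPM correlated with those of the other pMSCs libraries at a mean r of 0.970, against 0.968 to 0.975 for those 3 libraries. Library 15 was the lowest of the iwatMSCs libraries, at 0.957 against 0.964 to 0.970.

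The 4 arms together took 5.56%, 4.76%, 4.75% and 4.71% of mature miRNA reads in pMSCs libraries 5 to 8. In iwatMSCs libraries 13 to 16 they took 1.87%, 1.26%, 1.81% and 2.01%. Wilson 95% intervals reached at most 0.0161 percentage points to either side and cover counting error only. Thus the cluster held a larger part of the miRNA reads in every pMSCs library than in any iwatMSCs library. Since these are bulk samples, a larger number of cells that express the pair and a higher level per cell cannot be told apart.

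miR-143-3p carried nearly all of these reads. Its level was 61443, 50138, 48888 and 44734 CPM in pMSCs libraries 5 to 8, and 17515, 13467, 16026 and 17310 CPM in iwatMSCs libraries 13 to 16. The groups did not overlap, and the lowest pMSCs library was 2.55 times the highest iwatMSCs library. The mean was 52105 ± 8526 CPM (SD, n = 3) in pMSCs without library 7, 51301 ± 7145 (SD, n = 4) with it, and 16079 ± 1862 (SD, n = 4) in iwatMSCs. miR-143-3p was thus higher expressed in pMSCs, with a log2 fold change of 1.65 (SE 0.17) and an adjusted p of 0.00105 by edgeR's quasi-likelihood test with Benjamini-Hochberg adjustment over 1244 miRNAs. With all 8 libraries edgeR gave 1.67 (SE 0.15) and an adjusted p of 0.000226. On the table's second column of values, named TPM and described further on, the log2 difference was 0.72 and was not called by limma (adjusted p = 0.217). The two-sided exact permutation p was 0.0571 on 7 libraries and 0.0286 on 8, in each case the smallest these sample numbers allow.

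miR-143-3p was the fifth to seventh most abundant miRNA in the pMSCs libraries and the fifteenth to nineteenth in the iwatMSCs libraries. In the order of mean CPM over 4 pMSCs libraries it stood between let-7i-5p at 64290 ± 10625 (SD) and miR-26a-5p at 48312 ± 3099 (SD). In iwatMSCs it stood between miR-23a-3p at 16164 ± 2429 (SD) and miR-199a-5p at 14885 ± 2869 (SD). In each tissue its range over libraries overlapped those of both neighbours. Of 24 miRNAs with a mean of at least 10000 CPM, edgeR called 2, both higher in pMSCs: miR-10a-5p, which lies in a Hox gene cluster (log2 fold change 1.78, adjusted p = 0.00410), and miR-143-3p. The next highest log2 fold change among the 24 was 0.59, for miR-26a-5p, and the lowest were -1.04 for miR-125b-5p (adjusted p = 0.526) and -0.72 for miR-16-5p (adjusted p = 0.0636). Just under this level, miR-196a-5p, another Hox cluster miRNA, was at -7.68 (edgeR adjusted p = 1.18e-06).

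miR-145a-5p was also higher expressed in pMSCs, at a far lower level. It reached 783, 830, 535 and 763 CPM in libraries 5 to 8 and 206.2, 236, 423 and 209 CPM in libraries 13 to 16. The groups did not overlap, but the gap between them rested on library 7, the lowest in pMSCs, and library 15, the highest in iwatMSCs, with the lower end of pMSCs at 1.26 times the upper end of iwatMSCs. Without library 7 that ratio was 1.80. The mean was 792 ± 34.5 CPM (SD, n = 3) in pMSCs without library 7, 728 ± 132 (SD, n = 4) with it, and 268 ± 104 (SD, n = 4) in iwatMSCs. The log2 fold change was 1.54 (SE 0.25, edgeR adjusted p = 0.00776) on 7 libraries and 1.44 (SE 0.27, adjusted p = 0.0117) on 8. Without iwatMSCs library 16 the edgeR call was lost at an adjusted p of 0.0509, and without library 15 the log2 fold change was 1.87 (adjusted p = 0.00154). In the order of mean CPM it was the 73rd miRNA in pMSCs, between miR-29b-3p at 734 ± 210.3 and miR-434-3p at 714 ± 209.6 (SD, n = 4), and the 124th in iwatMSCs, between miR-376c-3p at 273 ± 40.5 and miR-296-5p at 268 ± 175 (SD, n = 4).

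Of the passenger arms, miR-145a-3p followed its partner across tissues. Its level was 170, 46.8, 116 and 154 CPM in pMSCs and 35.9, 33.9, 31.3 and 35.4 CPM in iwatMSCs. The iwatMSCs libraries lay within a narrow band, while pMSCs library 6 was well below the other pMSCs libraries and only just above that band. The mean was 124 ± 67.1 CPM (SD, n = 3) in pMSCs without library 7 and 34.1 ± 2.06 (SD, n = 4) in iwatMSCs, with a log2 fold change of 1.83 (SE 0.41, edgeR adjusted p = 0.0413). With all 8 libraries it was 1.83 (SE 0.36, adjusted p = 0.0139). Leaving out pMSCs library 5 or 8 or any iwatMSCs library from the 7 lost the edgeR call, with adjusted p-values of 0.0886 to 0.154, and leaving out pMSCs library 6 gave 2.22 (adjusted p = 0.00258).

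miR-143-5p was close to the limit of these libraries. It had 13, 10, 9 and 26 reads in pMSCs and 3, 1, 18 and 3 reads in iwatMSCs. Library 15 lay among the pMSCs libraries, so the groups overlapped. The log2 fold change of 1.46 (SE 0.84) was not called by edgeR (adjusted p = 0.404), nor was it without library 15, at 2.76 (adjusted p = 0.0677). Thus 3 of 4 arms were called higher in pMSCs on 7 libraries and on 8. Among all mature miRNAs tested, 2.65% were called higher on 7 libraries (33 of 1244) and 3.46% on 8 (43 of 1241). The same 3 arms were above every iwatMSCs library in every pMSCs library, as were 6.93% of all mature miRNAs tested (86 of 1241). The median log2 fold change of all 1244 miRNAs was -0.08. Of 184 miRNAs with a mean of at least 100 CPM, 4.89% were called higher in pMSCs.

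**Figure D1:**
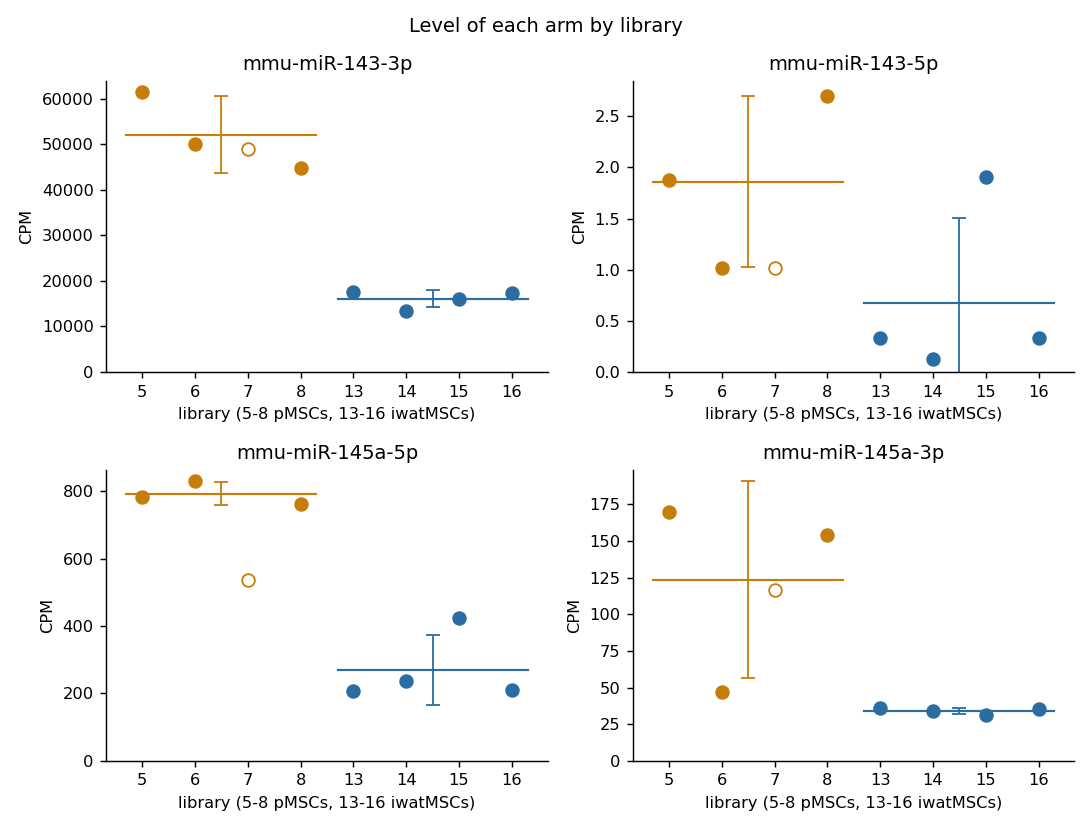
Level of each arm in CPM (vertical axis, starting at 0) in each library, with pMSCs in orange and iwatMSCs in blue. The open circle is library 7, and lines and bars are the mean and SD without it, with bars cut at 0. The pMSCs libraries of miR-143-3p, between 44734 and 61443 CPM, all sit above the iwatMSCs libraries, and the same holds for both miR-145a arms but not for miR-143-5p.

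**Figure D2:**
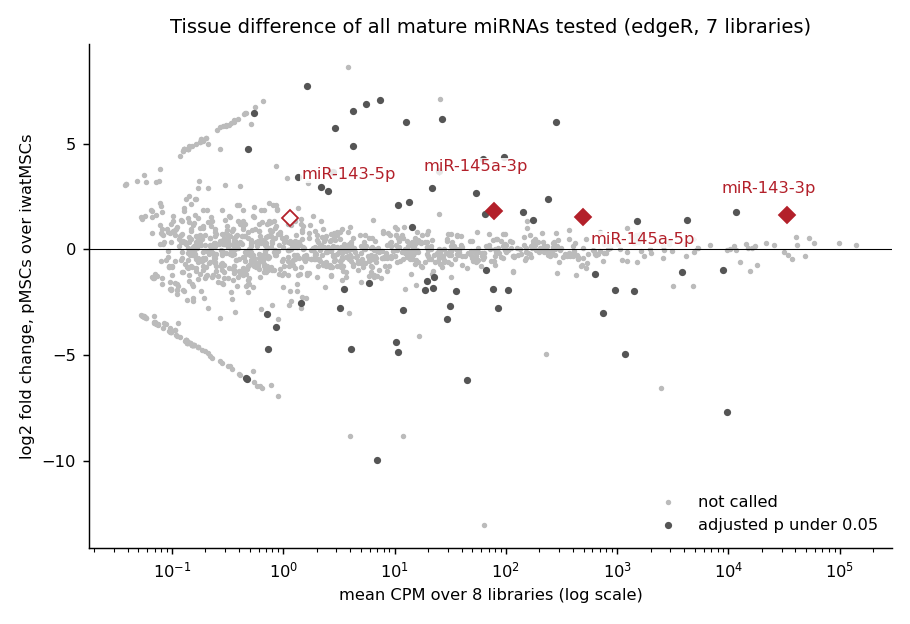
Log2 fold change of pMSCs over iwatMSCs (edgeR, 7 libraries) against mean CPM over 8 libraries on a log axis, for 1244 mature miRNAs. Dark dots were called and red diamonds are the 4 arms, open where not called. miR-143-3p is at 1.65, and the log2 fold changes of the 4 arms lie between 1.46 and 1.83.

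miRNAs known from other cell types were looked at as well, among them endothelial and white blood cells, which the CD31- and CD45- gates should remove. Endothelial miR-126a and miR-126b, blood miRNAs and striated muscle miRNAs had 0 members called by edgeR in either direction. Among all mature miRNAs 15.8% had an unadjusted edgeR p under 0.05 (197 of 1244), and DESeq2 called 7.62% higher (61 of 801 with an adjusted p) and 7.24% lower in pMSCs (58 of 801). Unadjusted p-values under 0.05 numbered 1, 3 and 1 in these lists, and DESeq2 called 0, 2 (both lower in pMSCs, miR-150-5p and miR-223-3p) and 0. Their summed levels were 222.7 to 422 CPM in pMSCs and 198 to 355 in iwatMSCs for the endothelial list (4 of 4 rows tested, median log2 fold change 0.48, led by miR-126a-3p at means of 313 and 263 CPM). For the blood list they were 80.1 to 96.1 CPM in pMSCs and 105 to 163 in iwatMSCs (8 of 11 rows tested, median -0.91), where miR-451a of red cells was at 50.4 and 57.0 CPM and miR-142a-3p of white cells had no read in pMSCs. For the striated muscle list they were 300 to 484 and 374 to 787 CPM (5 of 10 rows tested, median 0.89), nearly all of it miR-206-3p at 391 and 579 CPM, whereas miR-1a-3p was at 2.10 and 0.758 CPM. By contrast, the list of epithelial, exocrine and endocrine miRNAs moved with the tissue in the same direction as the cluster, with 12 of 23 tested members called higher in pMSCs and 0 lower by edgeR (16 at an unadjusted p under 0.05, and 13 higher by DESeq2, median log2 fold change 3.95). Its summed level was 1682, 1491, 790 and 847 CPM in pMSCs libraries 5 to 8 and 185 to 300 CPM in iwatMSCs. It was led by miR-375-3p, known from pancreatic islets, at 550 and 9.35 CPM, and by the epithelial miR-200c-3p at 183 and 9.58 CPM, while miR-192-5p was at 158 and 135 CPM. Only 1 row of this list was at 0 in all libraries. The part of such cells in the higher level of miR-143-3p and miR-145a was not tested. No list of smooth muscle or pericyte miRNAs was examined.

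The ratio of the guide arms, miR-143-3p over miR-145a-5p, asks whether both hairpins differed between tissues to the same degree. It was 78.4, 60.4, 91.4 and 58.7 in reads in pMSCs libraries 5 to 8 and 84.9, 57.1, 37.9 and 82.9 in iwatMSCs libraries 13 to 16. The libraries of both tissues overlapped throughout, and library 15 had the lowest ratio of all. Geometric means were 65.3 (n = 3) and 62.5 (n = 4), a log2 difference of 0.06 (SE 0.34, two-sided exact permutation p = 0.914, also after adjustment over 2 ratios). On all 8 libraries the difference was 0.18 (SE 0.31, exact permutation p = 0.543, adjusted 0.8286). The ratio of the passenger arms, miR-143-5p over miR-145a-3p, differed by 0.46 on the log2 scale (SE 1.04, exact permutation p = 0.686, adjusted 0.914). A tissue difference in either ratio was therefore not detectable, which at these standard errors does not show that the ratios are alike. Reads of different miRNAs are not calibrated against each other, so that these ratios compare libraries rather than molecules.

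Arm use differed greatly between the hairpins, while the libraries of the tissues overlapped in both. miR-143-3p had 32821, 49313, 48065 and 16595 reads for each read of miR-143-5p in pMSCs, and 52861, 109483, 8391 and 52490 in iwatMSCs. For mir-145a, miR-145a-5p exceeded miR-145a-3p by 4.61, 17.7, 4.60 and 4.95 times in pMSCs and by 5.74, 6.94, 13.5 and 5.90 times in iwatMSCs. Of the reads on the mature rows of both mir-145a arms, the 3p arm was 17.8%, 5.33%, 17.9% and 16.8% in pMSCs and 14.8%, 12.6%, 6.89% and 14.5% in iwatMSCs. Library 6 in pMSCs and library 15 in iwatMSCs thus had less of the 3p arm than the other libraries of their tissue. In library 6 the 3p arm itself was low, and in library 15 the 5p arm was high.

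Arm ratios of 3p over 5p were compared by limma on the log2 scale over 172 hairpins with at least 10 reads on average on each arm. For mir-145a the tissues differed by 0.02 (SE 0.56, adjusted p = 0.977) on 7 libraries and by 0.19 (adjusted p = 0.896) on 8, so that no difference was detectable. For mir-143 the values were -0.20 (SE 0.78, limma adjusted p = 0.955) and -0.04 (adjusted p = 0.983), and by the TPM column -1.16 (adjusted p = 0.716). miR-143-5p met the read minimum only through pMSCs, where it averaged 16.3 reads against 6.25 in iwatMSCs, so these values say nothing firm on arm use in mir-143. Among all hairpins 1.16% were called on 7 libraries (2 of 172) and 2.94% on 8 (5 of 170).

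**Figure D3:**
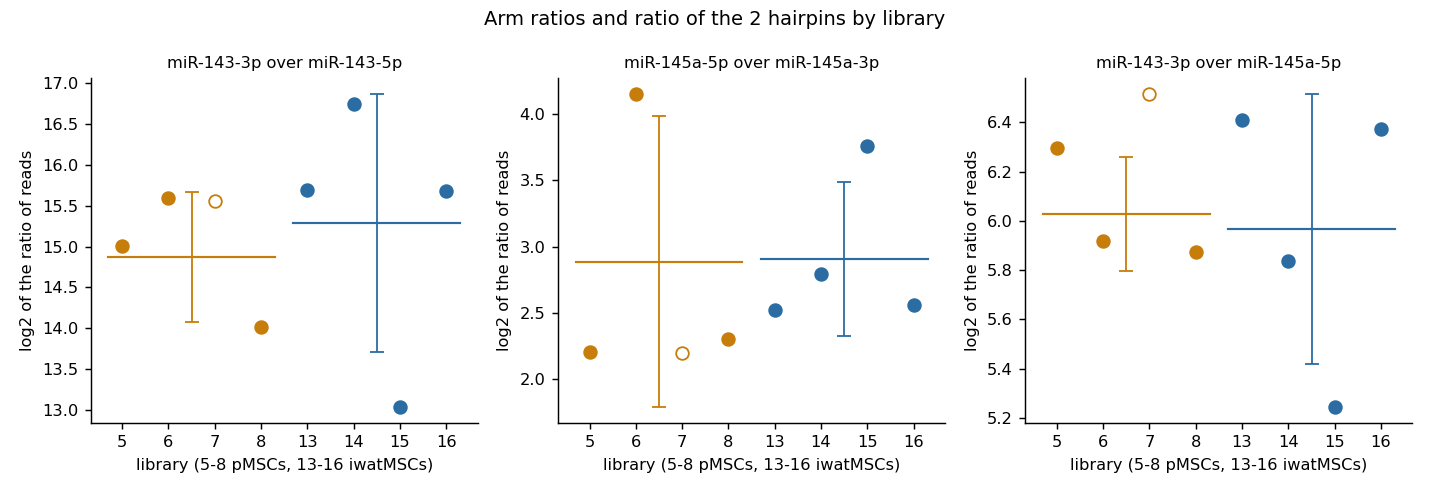
Log2 of the ratio of reads by library for miR-143-3p over miR-143-5p, miR-145a-5p over miR-145a-3p, and miR-143-3p over miR-145a-5p. Orange is pMSCs, blue is iwatMSCs, the open circle is library 7, and lines and bars are the mean and SD without it, on axes that do not start at 0. The tissues overlap in every panel, with library 6 apart in the second and library 15 in the first and the third.

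The table holds 2 further readouts of these loci. Its hairpin type lists rows under the names of the arms, and its precursor type holds family rows named mir-143 and mir-145. How reads were divided among these types is not given in the sources used here. Values are given per 1000000 reads of the same type and library. They are not scaled by TMM, whereas the edgeR fold changes beside them are. The hairpin row of miR-143-3p was at 22447, 19942, 22898 and 19625 in pMSCs and at 6688, 4668, 7108 and 6184 in iwatMSCs. The groups did not overlap, and the row was higher in pMSCs by 1.89 on the log2 scale (SE 0.19, edgeR adjusted p = 0.000150 over 1092 rows). By edgeR on the TPM column, added after seeing the data, this was 1.16 (adjusted p = 0.000418). The row of miR-145a-5p was at 344, 440.2, 228 and 380 in pMSCs and at 85.5, 73.3, 249 and 97.4 in iwatMSCs. Library 15 was again the highest of iwatMSCs, and here it was above library 7, so that the groups overlapped when library 7 was kept. The row was higher in pMSCs by 1.80 (SE 0.33, edgeR adjusted p = 0.00666) without library 7 and by 1.64 (SE 0.33, adjusted p = 0.00875) with it. That of miR-145a-3p was at 216.7, 114, 153 and 220.8 in pMSCs and at 42.0, 36.3, 56.4 and 44.5 in iwatMSCs, higher by 2.20 (SE 0.28, adjusted p = 0.000747). Here library 6 was again the lowest of pMSCs, at a clear distance from iwatMSCs. The libraries held 0.369 to 0.795 mature reads of miR-145a-3p for each read of its hairpin row. For miR-145a-5p this was 1.70 to 2.51. The share of each mir-145a arm thus depended on the type of row, and the shares given above hold for mature rows only.

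Of the hairpin rows, 3.57% were called higher in pMSCs (39 of 1092). The share of all hairpin rows without overlap between the tissues was not counted. The hairpin row of miR-143-5p held 0 to 4 reads and was not called (log2 fold change 0.95, edgeR adjusted p = 0.734). miR-145b, a further mouse member of the family, has only a hairpin row in the table, with 0 to 2 reads in a library. All 3 called arms thus had a hairpin row called in the same direction, although both readouts come from the same libraries and are not independent of each other.

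On the same scale, the precursor row of mir-145 was at 586, 647, 357 and 360.2 in pMSCs and at 131, 108, 146 and 312 in iwatMSCs. The groups did not overlap, and the row was higher in pMSCs by 1.84 (SE 0.38, edgeR adjusted p = 0.0159 over 119 rows) on 7 libraries. On 8 it was higher by 1.51 (SE 0.36, edgeR adjusted p = 0.0232). Leaving out pMSCs library 5 or library 6 from the 7 lost the call (adjusted p = 0.0555 and 0.0737). The row of mir-143 was at 10403, 9803, 10926 and 10068 in pMSCs but at 2965, 2212, 248 and 305 in iwatMSCs. Every pMSCs library was above every iwatMSCs library, yet the latter fell into pairs, with the lower of libraries 13 and 14 at 7.25 times the higher of libraries 15 and 16. No such pairing was seen in the mature or hairpin rows of miR-143-3p. Among 49 precursor rows with a mean of at least 100 reads only mir-143 showed a gap of over 4-fold between these pairs. Smaller gaps were not counted. Total precursor reads also fell into these pairs, at 1130482 and 1253583 in libraries 13 and 14, and 603691 and 710898 in 15 and 16. Summed levels of the endothelial and epithelial lists were also higher in libraries 13 and 14, and those of the striated muscle list were lower. Those of the blood list overlapped. The cause was not tested. For mir-143 the log2 fold change of 2.71 (SE 0.95) was not called (edgeR adjusted p = 0.106), nor was that on 8 libraries, 2.57 (adjusted p = 0.0678). Of the precursor rows 4.2% were called higher in pMSCs (5 of 119). The share of all precursor rows without overlap between the tissues was not counted. These rows were added after the data had been seen.

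**Figure D4:**
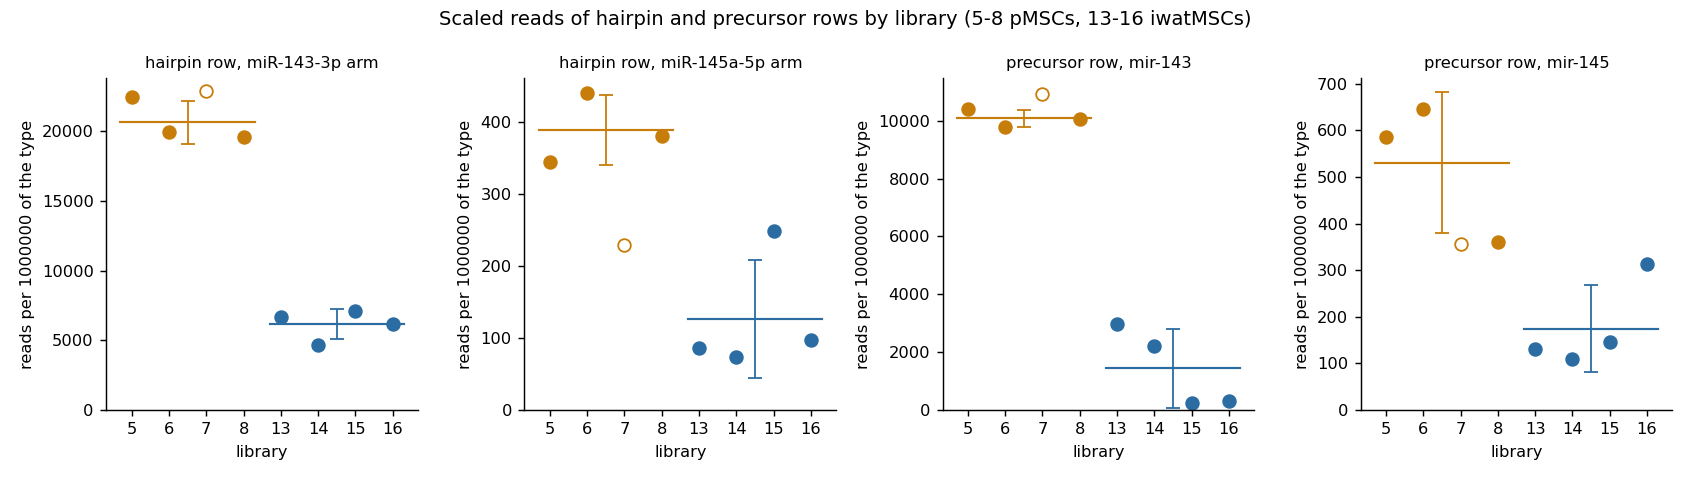
Reads per 1000000 reads of the same type in each library, on axes that start at 0, for the hairpin rows of miR-143-3p and miR-145a-5p and the precursor rows of mir-143 and mir-145. Orange is pMSCs, blue is iwatMSCs, the open circle is library 7, and lines and bars are the mean and SD without it. For mir-143 the precursor row is at 2965 and 2212 in libraries 13 and 14 but at 248 and 305 in libraries 15 and 16.

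The size of the miR-143-3p difference depended on which deposited column was read. Beside the reads the table gives a column named TPM, in whole numbers wherever a row has a read. In 7 libraries it summed to between 3115597 and 3998580 across mature miRNAs, so it is not a share of 1000000, and in no mature row did it exceed the reads. Low rows had 100 TPM per 100 reads at the median, but this fell to 84.9 to 88.6 for rows of 10000 to 100000 reads and to 36.5 to 51.1 above that. The highest TPM of any mature miRNA was between 149346 and 162783 in every one of these libraries. The library preparation added unique molecular identifiers, and whether either column counts them is not given in the sources used here.

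For miR-143-3p this ratio was 26.6 to 29.3 TPM per 100 reads in pMSCs, where it had 426676 to 493132 reads, and 50.1 to 59.0 in iwatMSCs, where it had 109483 to 158584. Its TPM mean was 126043 ± 5456 (SD, n = 3) in pMSCs and 77035 ± 8540 (SD, n = 4) in iwatMSCs. The difference was thus 1.64-fold by the TPM column and 3.12-fold by the means of the reads, neither scaled to depth, in the same direction. On log2(TPM + 1) limma gave 0.72 (SE 0.24), which was not called (adjusted p = 0.217), whereas edgeR on the TPM values, added after seeing the data, gave 0.73 (adjusted p = 0.0212). For miR-145a-5p, at 92.6 to 94.7 TPM per 100 reads in pMSCs and 95.8 to 97.5 in iwatMSCs, the fold of the same unscaled means was 2.80 by TPM and 2.89 by reads, and for miR-145a-3p it was 3.42 by both.

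The lower ratio of TPM to reads at high counts was not particular to miR-143-3p. All 17 mature miRNAs with at least 100000 reads in each of the 7 libraries had a smaller tissue difference by TPM than by reads, with a median absolute log2 difference of 0.10 against 0.27. By TPM, the ratio of the guide arms, miR-143-3p over miR-145a-5p, was 23.4, 17.4 and 18.2 in pMSCs libraries 5, 6 and 8 and 43.7, 34.6, 20.9 and 45.6 in iwatMSCs, and its log2 difference turned to -0.83 (two-sided exact permutation p = 0.114). In library 7 the column was of another kind: miR-143-3p was listed at 1 TPM with 432586 reads, and 599 of 634 mature rows with at least 10 reads were listed at 1. How the TPM column was made, and which column is nearer to the number of molecules, was not tested.

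**Figure D5:**
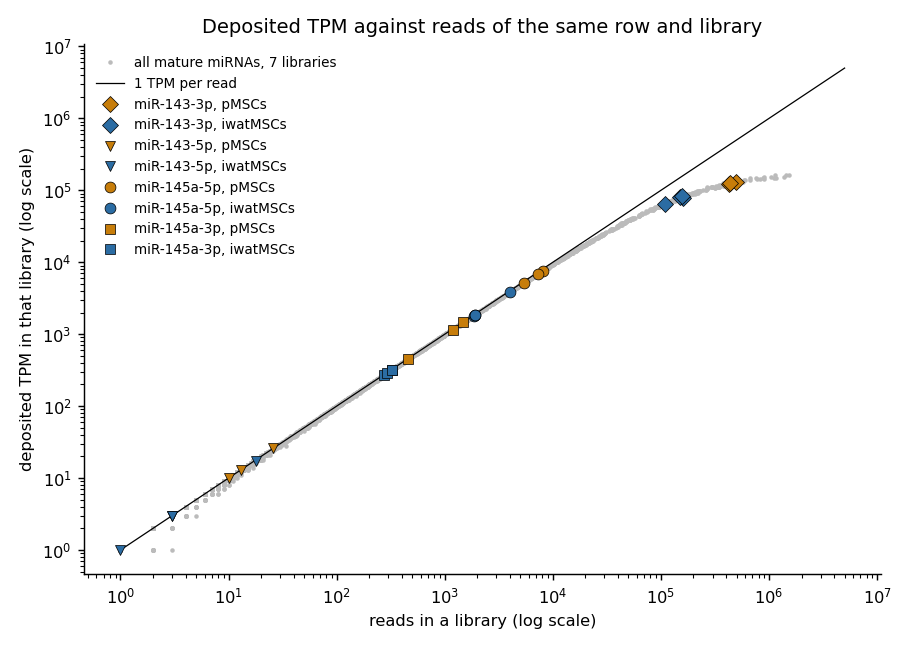
Deposited TPM against reads of the same row and library, both on log axes, for all mature miRNAs in 7 libraries (grey) and for the 4 arms (orange pMSCs, blue iwatMSCs). The line marks 1 TPM per read. The values of miR-143-3p lie below the line, at 26.6 to 29.3 TPM per 100 reads in pMSCs and 50.1 to 59.0 in iwatMSCs, whereas the other arms lie on or just below it.

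Likeness of pattern was measured as Pearson's r of log2(CPM + 1) over all 8 libraries, against 183 other miRNAs with a mean of at least 100 CPM, and is given as a description. Most like miR-143-3p were miR-27b-3p (r = 0.982), miR-23b-5p (0.963), miR-146a-5p (0.956), miR-23b-3p (0.951) and miR-375-3p (0.931), and miR-145a-5p came in place 8 (0.889). Most like miR-145a-5p were miR-375-3p (0.919), miR-28a-5p (0.895), miR-143-3p (0.889), miR-146a-5p (0.886) and miR-296-5p (0.875). Both tissues enter these values, so that r includes any difference between them. Once the mean of each tissue was taken away, r between miR-143-3p and miR-145a-5p was -0.01 over the 8 libraries, and r between miR-145a-5p and miR-145a-3p was -0.20. Between miR-143-5p and miR-145a-5p it was 0.77, where library 15 was high for both.

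Lists of other miRNAs with roles close to those described for the cluster are set beside it here, with their counts. Each list held every arm of its hairpins, whether or not that arm itself has been reported to have the role. Among all mature miRNAs edgeR called 2.65% higher (33 of 1244) and 2.73% lower in pMSCs (34 of 1244), and 15.8% had an unadjusted edgeR p under 0.05. DESeq2 called 7.62% higher and 7.24% lower. Of 12 tested arms of miRNAs known from fibroblast activation, edgeR called 0 (5 at an unadjusted p under 0.05, and 1 higher and 2 lower by DESeq2, median log2 fold change -0.25), with miR-214-5p at -0.87 (adjusted p = 0.0811). miR-199a-3p was at -6.56 (SE 2.13, edgeR adjusted p = 0.175), but its iwatMSCs libraries ran from 34.6 to 10521 CPM. miR-199b-3p was at 0.44 (SE 1.28, edgeR adjusted p = 0.899), with iwatMSCs libraries from 113 to 7999 CPM. How reads were shared between the miR-199a-3p and miR-199b-3p rows is not given in the sources used here. With such a spread neither value is read as a tissue difference. Of 18 arms of the miR-29 and miR-30 families, which restrain collagens and matrix genes, 0 were called by edgeR (3 at an unadjusted p under 0.05, and 2 higher by DESeq2, median -0.12), with miR-30e-3p at 0.64 (adjusted p = 0.165). Of 30 arms of miRNAs reported to favour fat cell formation, edgeR called 0 higher and 2 lower (9 at an unadjusted p under 0.05, and 3 higher and 2 lower by DESeq2, median -0.09), namely miR-211-5p at -4.38 (edgeR adjusted p = 0.000801) and miR-204-5p at -2.79 (adjusted p = 0.00208), relatives that also restrain bone formation. Of 22 arms of miRNAs reported to restrain fat cell formation, edgeR called 2 higher and 4 lower (10 at an unadjusted p under 0.05, and 5 higher and 5 lower by DESeq2, median -0.24). The latter included miR-31-5p at -1.93 (adjusted p = 0.000801), miR-31-3p at -1.93 (adjusted p = 0.00243) and miR-138-5p at -0.97 (adjusted p = 0.0225), and the higher ones included miR-27b-3p at 1.34 (adjusted p = 0.00318).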

How the data were processed

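Small RNA libraries were sequenced and analysed by BGI. The deposited table gives the authors' read counts per small RNA and library and a TPM column, held here as a score because it is in whole numbers and does not sum to 1000000. Bowtie2 is named in the submitters' processing notes. Its version, the genome build and the miRNA annotation are not given in the sources used here. Mature miRNA rows averaging 1 read or more in either tissue were tested with edgeR 4.0.16 (TMM, quasi-likelihood F test) in R 4.3.3, without covariates, at an adjusted p of 0.05. Its SE is approximate, found by dividing the size of the log2 fold change by the root of F. edgeR replaced the study's test because the values are counts. Arm ratios were tested with limma 3.58.1, with 0.5 reads added to each arm, and DESeq2 1.42.0 was an alternative. Single ratios were compared by exact permutation in scipy 1.17.1. Other alternatives were other filters, scaling by totals, the TPM column and leaving out each library. The edgeR and limma fits were also run on simulated data. The simulated arm ratios spread less between libraries than those of mir-143 and mir-145a, so that run does not cover these hairpins. Depth was 7789990 to 10538022 mature reads.

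Samples were grouped by the tissue in their labels. Named miRNAs were the 4 arms, the 5 most like each guide arm, neighbours in mean CPM, and of each list up to 4 with the lowest adjusted p or, for other cell types, the highest mean CPM. Members and lists were chosen with earlier results of these data known. Abundant miRNAs without such a rule (miR-10a-5p, miR-125b-5p, miR-16-5p and miR-196a-5p) were named after their values were seen. The position of the reads in the genome and the sequences of the arms are not used here.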

Additional observations from a re-analysis of the deposited data

Results flagged for a closer look

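Of 36 groups of 4 libraries looked at, 8 held a library far from the other 3, by Dixon's ratio of a gap to the group's range. For a single group of normally spread values chance gives this in about 1 of 20. The groups are not independent, because the same arm entered as CPM, TPM and hairpin row reads. The count of 8 can therefore not be set against that rate. In pMSCs library 7, miR-143-3p was listed at 1 TPM, against 120493 to 131399 in the other pMSCs libraries. In pMSCs library 6, the log2 ratio of miR-145a-5p over miR-145a-3p was 4.15, against 2.20 to 2.31. In iwatMSCs library 15, miR-143-5p was at 1.91 CPM against 0.123 to 0.331, at 17 TPM against 1 to 3, and at 4 hairpin row reads against 0. In the same library miR-145a-5p was at 423 CPM against 206.2 to 236, at 3818 TPM against 1816 to 1868, and at 2052 hairpin row reads against 762 to 935. The cause was not tested for any of these.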

How the results depend on the processing

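miR-143-3p kept its direction and its edgeR call without any 1 library (log2 fold change 1.52 to 1.79), as did the hairpin rows of miR-143-3p (1.71 to 1.96), miR-145a-5p (1.64 to 2.18) and miR-145a-3p (1.94 to 2.47). The range was 1.44 to 1.87 for miR-145a-5p, 1.55 to 2.22 for miR-145a-3p and 1.07 to 2.76 for miR-143-5p, 24 to 34 for the number of miRNAs called higher and 18 to 31 for those called lower. It was -0.55 to 0.18 for the arm ratio of mir-143 (without pMSCs library 8 or iwatMSCs library 15 too few reads were left), -0.32 to 0.65 for that of mir-145a, -0.18 to 0.21 for the ratio of the guide arms, -0.11 to 1.25 for that of the passenger arms, and 0 to 2 for hairpins called on the arm ratio, 1.63 to 2.10 for the mir-145 precursor row, 2.25 to 3.24 for that of mir-143 and 0.52 to 4.08 for the hairpin row of miR-143-5p. Without library 16 miR-145a-5p was not called. DESeq2 called 61 higher and 58 lower, against 33 and 34 by edgeR. Hairpins called on the arm ratio were 5 with 8 libraries, 1 with arms at a mean of 1 read and 0 at 100, against 2. With library totals in place of TMM miR-145a-3p was not called, at 1.72 (edgeR adjusted p = 0.0589). By limma on TPM with 1, 0.5 or 5 added, miR-143-3p was at 0.72, 0.72 and 0.72 (adjusted p = 0.217, 0.235 and 0.0825) and miR-145a-3p at 1.61, 1.61 and 1.60, all not called. miR-145a-5p was not called at 1.55 and 1.55 with 1 and 0.5 added. The guide arm ratio turned to -0.83 by TPM. By edgeR on the TPM values, added after seeing the data, the miR-143-3p hairpin row fell to 1.16 (adjusted p = 0.000418). The mature row fell to 0.73 (adjusted p = 0.0212), and both were still called. Limma on TPM was not run for hairpin rows. The cause was not tested. No paired analysis was possible because the tissues share no library numbers and no source ties libraries to animals. Depth limits miR-143-5p, at 1 to 26 reads.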
